A study of Mus musculus with 6 samples.

Results

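The genes described here encode voltage-gated, ATP-sensitive and other ion channels of the mouse beta-cell, together with their auxiliary subunits. They were chosen by symbol. A gene was taken when its symbol began with Kcn, Cacn, Scn followed by a digit, Hcn, Clcn, Ttyh, Trpm or Trpc, or was *Abcc8* or *Abcc9*. This gave 65 of the 13535 genes in the expression table, of which 64 were protein-coding and 1, *Kcnq1ot1*, was an antisense RNA. The annotation holds 169 protein-coding genes that meet the rule. Every gene in the table reached 10 normalized counts in 3 or more libraries, so the 65 are the members above this minimum in the deposited table. *Kcnj13* was the only member to pass it through a single group, the pseudo-beta libraries, and it therefore had to be lower in the other group. A minimum of 10 in every library was met by 52 members.

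Beta-cells were sorted by flow cytometry after 5 days of reaggregation culture, which they had spent together with sorted alpha- and delta-cells (pseudo-islets) or without them (pseudo-beta). Sorted cells came from wild-type C57BL/6JRj male mice of 12 weeks, and no genotype or drug distinguished the groups. Each of the experiments 35, 36 and 37 gave 1 library per group, 3 against 3, and the sources used here do not say how many animals went into each. Two-sided tests therefore rest on 6 libraries, and an exact permutation test of 3 against 3 cannot give a p below 0.1. The libraries summed to 17994346 to 19635287 normalized counts, of which the ion channel genes took 0.188% to 0.210%. The insulin genes and the other beta-cell markers were present in every library at levels that did not pass the test between groups, with 0 of 10 called.

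A beta-cell turns glucose into an electrical signal. ATP made from glucose closes KATP channels, the membrane depolarizes, voltage-gated calcium channels open and the incoming calcium triggers insulin exocytosis, while voltage-gated and calcium-activated potassium channels repolarize the cell. Sodium channels shape the rising phase of the action potential in mouse beta-cells, and TRPM cation channels and tandem-pore-domain potassium channels (K2P) set the background currents. *Kcnab3*, *Scn3a* and *Ttyh1* were set against the rest of this repertoire: *Kcnab3* encodes a cytoplasmic beta subunit of the *Shaker*-type potassium channels, *Scn3a* a pore-forming subunit of voltage-gated sodium channels, and *Ttyh1* a member of the tweety family of membrane proteins, which were described as chloride channels.

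The sequences shown are those tied to 2 of these 3 genes. *Kcnab3* was among the genes that the study selected from these same libraries, and its primer list holds a qRT-PCR pair for it, which marks a part of the transcript. The captions of the paper's qRT-PCR figures do not name *Kcnab3*, so the pair is shown without a qRT-PCR result. On GRCm38 the forward primer lies in coding exon 13 (chr11:69331802-69331821, plus strand) and the reverse primer binds the non-coding part of exon 14 (chr11:69332162-69332181), of 14 exons. The amplicon spans 139 bases of the spliced transcript. Both primers matched 2 of the 3 annotated *Kcnab3* transcripts, and neither matched any of the 21 transcripts of the other Kcnab genes. No capitals are used because no base is singled out.
Kcnab3 forward: tggaacatctgggctcccta
Kcnab3 reverse: acaatcactccgcattgggt

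The second sequence is the stretch that ends at the annotated start of *Ttyh1*, shown because *Ttyh1* was the member that passed the test. It lies at chr7:4119280-4119407 on the plus strand of GRCm38 and was taken from the RefSeq promoter table.
Ttyh1 upstream: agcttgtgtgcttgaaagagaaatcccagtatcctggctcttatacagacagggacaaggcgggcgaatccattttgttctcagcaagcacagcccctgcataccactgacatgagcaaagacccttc

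The cAMP response element was searched on both strands of each promoter, from 250 bases before to 50 bases after the start, as the whole palindrome TGACGTCA and as its TGACG core, which the palindrome contains. Promoters were matched for 49 of the 65 members. The *Ttyh1* promoter held neither string, which says only that these letters are not in this window. The palindrome was present in the promoters of *Clcn3* and *Clcn4* alone among the 49 members, and in 1.79% of all 32851 promoters. The core was present for 19 of the 49 members, or in 28.6% of their 70 promoters, beside 20.8% of all promoters.

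*Ttyh1*, *Scn3a* and *Kcnab3* had the 3 largest upward fold changes among the 43 members whose mean reached 50 normalized counts. Every experiment showed each of them higher in pseudo-islets. Among all 65 members they ranked 1st, 4th and 6th. *Kcna2* (log2 difference 1.68), *Clcn2* (1.40) and *Kcnab1* (1.11), with means under 50, lay between them. Members were chosen with earlier results of these data known, so these ranks only describe the libraries. *Ttyh1* (chr7:4119408-4136708) counted 732, 911 and 680 in pseudo-islets 35, 36 and 37 and 127, 260 and 215 in pseudo-beta 35, 36 and 37. The groups did not overlap, and the lowest pseudo-islets library was above the highest pseudo-beta library by more than the whole range of either group. The means were 775 ± 121 and 201 ± 67.6 (SD, n = 3 libraries each). The fold change fitted on the log2 scale, which is not the ratio of these means, was 3.97 (95% interval 2.63 to 6.01). On the scale of log2(normalized count + 1) the difference was 1.99 with a standard error of 0.27, and it passed the limma test without a block (Benjamini-Hochberg adjusted p = 0.0437 over all 13535 genes) and with the experiment as a block (limma adjusted p = 0.000734). Without the block the call was lost when any 1 pseudo-islets library, or the pseudo-beta library of experiment 35 or of experiment 36, was left out, with adjusted p from 0.0392 to 0.355 over the 6 omissions. With the block it held without each experiment in turn, and it was lost in either fit when 1 prior variance was set for every gene and in the unblocked fit with a pseudocount of 0.1, with scaling without the 10 most abundant genes or with quantile normalization.

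*Scn3a* (chr2:65457118-65567627) stood at 122, 169 and 251 normalized counts in the pseudo-islets and at 53.1, 71.3 and 79.5 in the pseudo-beta. The groups again did not overlap, and the library of experiment 37 was the highest of its group in both. The means were 181 ± 65.3 and 68.0 ± 13.5 (SD, n = 3), and the log2 difference was 1.36 with a standard error of 0.33. This did not pass the limma test without the block (adjusted p = 0.525) and lay just above the threshold with it (adjusted p = 0.0539).

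*Kcnab3* (chr11:69326258-69333042) counted 216, 422 and 463 in the pseudo-islets and 130, 233 and 177 in the pseudo-beta. Here the groups overlapped, since the pseudo-islets library of experiment 35 was below the pseudo-beta library of experiment 36. Within experiments the log2 ratios were 0.73, 0.85 and 1.38. The fitted log2 difference was 0.99 with a standard error of 0.33, and it did not pass the limma test without the block (adjusted p = 0.848) or with it (adjusted p = 0.0619). The paper, which used DESeq2 on these same libraries, took *Kcnab3* from its list of genes under an adjusted p of 0.05. When the blocked fit was limited to genes with at least 10 in every library, an alternative added after the values were seen, *Scn3a* and *Kcnab3* passed as well (limma adjusted p = 0.0386 and 0.0466), with 0.992% of the genes tested.

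Each of the 3 has relatives among the members, and these were set beside it per kb of exon, the scale on which levels of different genes can be compared. *Scn3a* made up 12.5%, 23.2% and 33.9% of the summed level of the sodium channel alpha subunits in pseudo-islets 35, 36 and 37, against 7.17%, 9.12% and 10.3% in the corresponding pseudo-beta. The share of *Ttyh1* in the sum of *Ttyh1* and *Ttyh2* was 49.1%, 58.1% and 47.6% in the pseudo-islets and 20.4%, 31.0% and 23.0% in the pseudo-beta. Both shares were thus higher in every pseudo-islets library than in any pseudo-beta library. *Kcnab3* accounted for 97.2% to 99.7% of the sum of *Kcnab3* and *Kcnab1* in every library of either group. Its only measured relative, *Kcnab1*, averaged 17.6 ± 6.42 and 10.7 ± 8.34 normalized counts (SD, n = 3). Per kb this was 1.64 over the 6 libraries, beside 95.4 for *Kcnab3*, so the share of *Kcnab3* had almost no room to move.

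**Figure D1:**
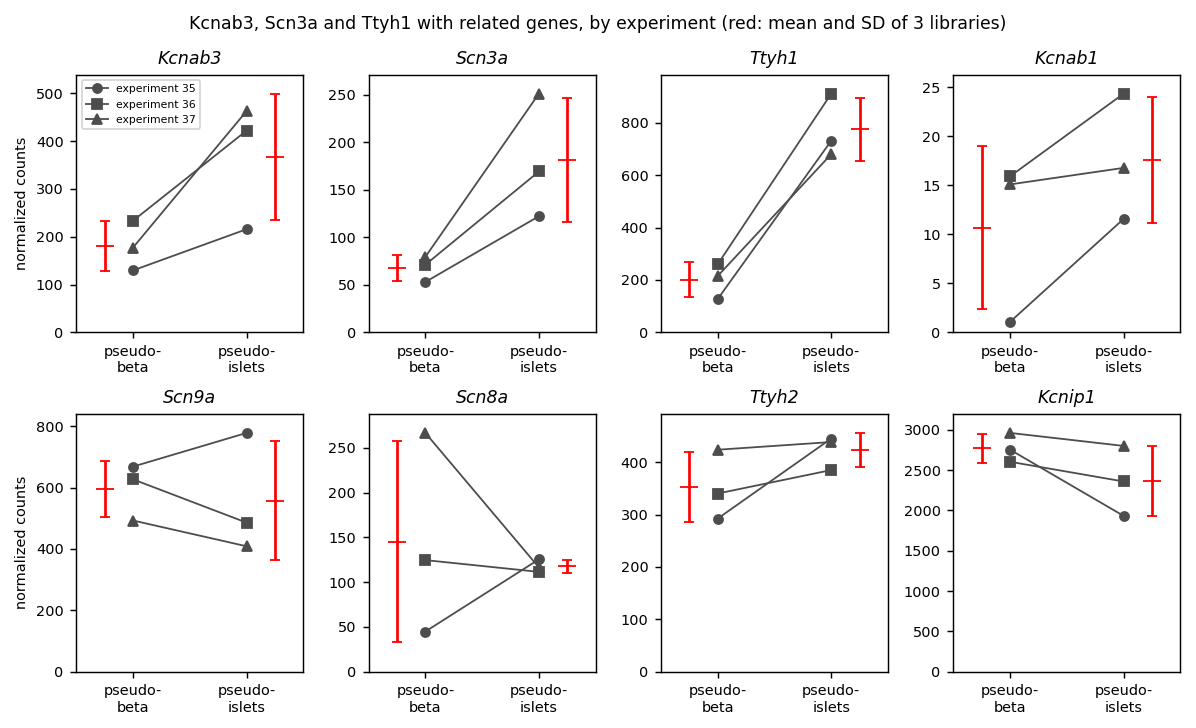
Normalized counts (linear axes from 0) of Kcnab3, Scn3a and Ttyh1 and of related genes in the pseudo-beta and pseudo-islets libraries, with lines joining libraries of 1 experiment and red marks for the mean and SD of 3 libraries. All lines of the first 3 panels climb, by the most for Ttyh1 in experiment 36, from 260 to 911, while Scn9a, Scn8a and Kcnip1 have lines that descend.

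Markers of the other endocrine cells moved with the groups and are given here beside these 3 genes. *Gcg*, the glucagon gene of alpha-cells, counted 1763, 941 and 2094 in the pseudo-islets and 36.1, 14.1 and 0 in the pseudo-beta. *Sst*, the somatostatin gene of delta-cells, counted 190, 146 and 210 against 0, 0 and 4.74. Of 12 alpha-cell markers 8 were in the table, 6 of them higher in pseudo-islets, of which 1 passed the unblocked test and 3 the blocked one, and they summed to 29860 to 36679 normalized counts in the pseudo-islets and to 26182 to 26997 in the pseudo-beta. Of 8 delta-cell markers 3 were in the table, with *Sst* alone called, and they summed to 3719 to 4935 against 3226 to 5015. The 4 markers of pancreatic polypeptide cells were all higher, 2 of them called with the block, and summed to 4112 to 9402 against 3269 to 5582. The macrophage gene *C1qa* was called with the block, at 2318, 2661 and 1649 against 977, 1412 and 983. Of 10 immune and endothelial markers 3 were in the table, 2 higher and 1 lower. They summed to 1713 to 2716 against 1044 to 1506, nearly all of it *C1qa*. *Esam* (log2 difference -0.34) and *Cd68* (0.97, at 3.74 to 18.6 normalized counts) were not called. The sorting panel included antibodies against CD45, TER119 and CD31, by which blood and endothelial cells are gated out. The 2 glial and stromal markers in the table, of 10 listed, were not called and summed to 110 to 180 against 129 to 147, and 0 of 8 acinar markers were in the table. The part of any of these cells in the differences of *Ttyh1*, *Scn3a* and *Kcnab3* was not tested, and in such bulk samples more cells of a type and more RNA per cell cannot be told apart. Reads of *Kcnab3* and *Ttyh1* may also include reads of antisense genes over their exons (*Kcnab3os* for the first, *9430041J12Rik* and *D030047H15Rik* for the second), as for 25 members in all, because the counting is not stated to use strand.

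The remaining 62 members were about evenly split in direction. Their median log2 difference was -0.004, with 30 higher and 32 lower, beside a median of 0.009 over all genes, and 0 passed the limma test with or without the block, with 6 at an unadjusted p under 0.05 without it and 12 with it. Over all 65 members 33 were higher and 32 lower, with a median of 0.013, and the single member called, *Ttyh1*, compares with a background of 0.0591% of all genes in the unblocked fit and of 0.539% in the blocked fit. At an unadjusted p under 0.05, 9 members (13.8%) passed without the block, 5 of them higher, beside 5.40% of all genes, and 15 (23.1%) passed with it, 8 of them higher, beside 11.9%. Groups of libraries that did not overlap were found for 7 members (10.8%), the same share as for all genes (10.8%). These 7 were *Kcnk1*, *Kcna2*, *Scn3a* and *Ttyh1*, which were higher, and *Cacnb3*, *Kcnj13* and *Kcnj6*, which were lower. For *Kcnj13* the separation was fixed by the minimum count, which it passed through the pseudo-beta alone. It is also counted among the 9 members at an unadjusted p under 0.05 without the block. A member was higher in pseudo-islets in all 3 experiments in 12 cases (18.5%), beside 18.0% of all genes, and lower in all 3 in 8 cases (12.3%), beside 15.1%.

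The precision of these libraries depended on the level of the gene. The 95% interval lay within a 1.5-fold change in either direction for 9 members without the block and for 17 with it, and within a 2-fold change for 23 and 31. All of these belonged to the 43 members whose mean reached 50 normalized counts, and none to the 22 members under 50, whose median standard error was 0.61 on the log2 scale beside 0.27 for the 43. Values for genes outside the naming rule, such as *Kcna2*, *Kcnk1*, *Kcnj6* and *Clcn2*, are given below where they stand apart, and these were chosen after their values were seen.

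**Figure D2:**
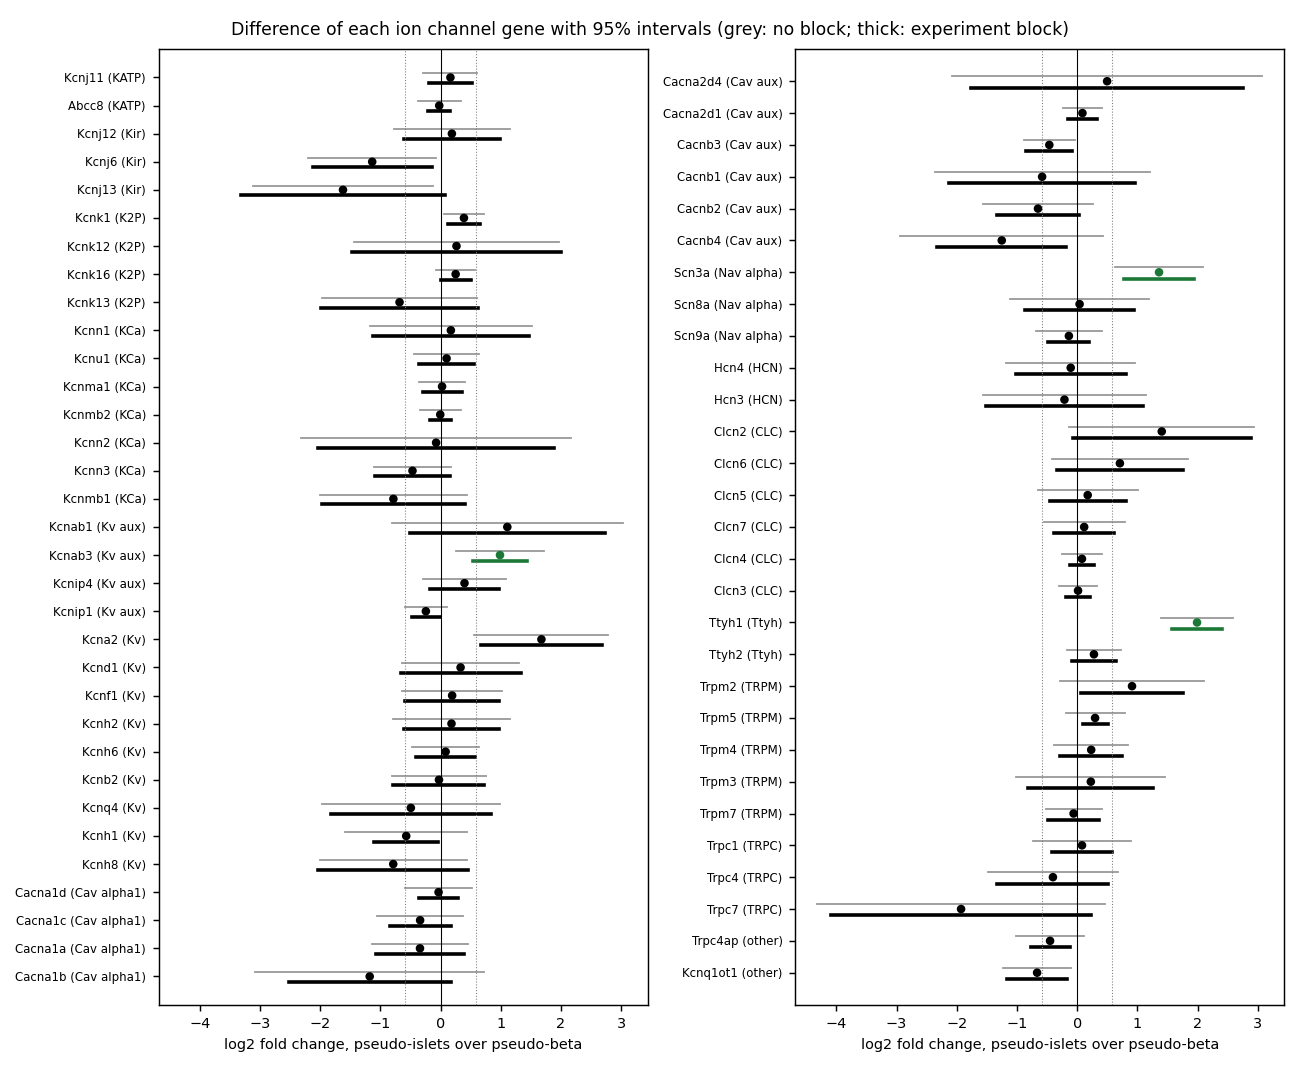
Log2 fold change of pseudo-islets over pseudo-beta for 62 of the 65 genes by family, with grey 95% intervals from the fit without a block and thick ones from the fit with the experiment as block; dotted lines mark a 1.5-fold change, and Kcnab3, Scn3a and Ttyh1 are green. Most points sit between the dotted lines, intervals widen for rare genes such as Trpc7 and Cacna2d4, and Ttyh1 at 1.99 lies farthest right.

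The repertoire itself was uneven. Per kb of exon, 5 genes held 65.1% and 10 genes 82.4% of the summed level of the 65. The highest was *Kcnk16*, the K2P channel characteristic of beta-cells, at 1527 normalized counts per kb averaged over the 6 libraries. It was followed by *Kcnmb2* at 1331, *Abcc8* at 619, *Trpm5* at 447, *Kcnip1* at 414, *Kcnk1* at 369, *Clcn4* at 299, *Cacna2d1* at 232, *Clcn3* at 146 and *Kcnj11* at 110. The median member was at 11.1, and *Kcnk16* was 138 times that level. *Kcnab3* ranked 12th at 95.4, *Ttyh1* 13th at 76.5 and *Scn3a* 35th at 9.99.

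**Figure D3:**
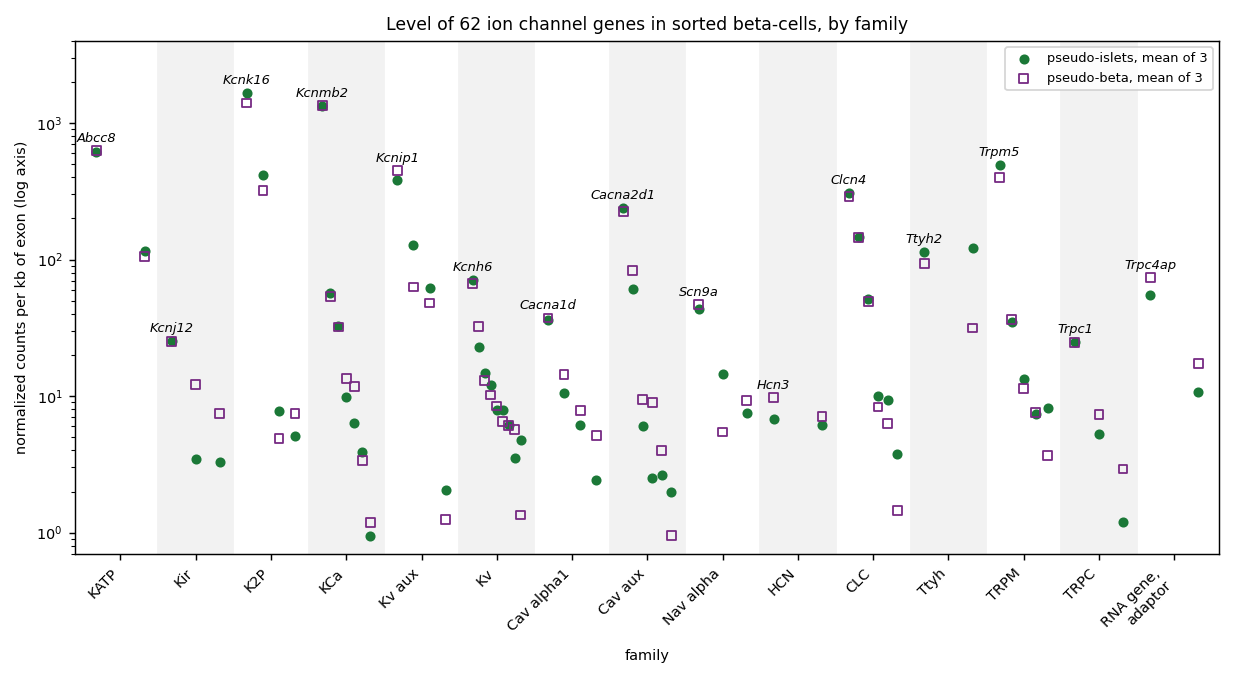
Normalized counts per kb of exon on a log axis for 62 of the 65 genes, by family in columns, with the mean of 3 pseudo-islets libraries as green circles and of 3 pseudo-beta libraries as purple squares, and the highest gene of each family named. The circle and square of most genes nearly coincide, from Kcnk16 at 1527 down to Kcnn2 at 1.06 over the 6 libraries. The pair of Ttyh1, second in its column, is visibly apart, as are pairs of rarer genes such as Kcna2, Clcn2, Cacnb4 and Kcnj13.

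The KATP channel is built from the sulfonylurea receptor encoded by *Abcc8* and the pore encoded by *Kcnj11*. *Abcc8* counted 4540, 4506 and 5827 in the pseudo-islets and 4151, 5073 and 5933 in the pseudo-beta. The groups overlapped over nearly their whole range, and experiment 37 was the highest in both. The log2 difference was -0.02 (95% interval -0.38 to 0.34, and -0.21 to 0.16 with the block). *Kcnj11* counted 402, 429 and 447 against 301, 417 and 437, where the pseudo-beta library of experiment 35 alone was low, and the log2 difference was 0.16 (-0.28 to 0.61, and -0.19 to 0.52 with the block). Per kb, *Abcc8* exceeded *Kcnj11* by 4.78 to 5.92 times in the pseudo-islets and by 5.53 to 6.28 times in the pseudo-beta.

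Among the K2P channels, *Kcnk16* counted 3989, 3613 and 4194 in the pseudo-islets and 2830, 3910 and 3247 in the pseudo-beta. It was higher in the pseudo-islets of experiments 35 and 37 and lower in those of experiment 36. The log2 difference was 0.25 (95% interval -0.07 to 0.57, and 0.003 to 0.50 with the block). It did not pass the blocked limma test (adjusted p = 0.415). *Kcnk1*, also a background potassium channel, counted 978, 843 and 987 against 701, 728 and 711. These groups did not overlap, and the pseudo-beta libraries differed by 13.7 (SD, n = 3) around a mean of 714. The log2 difference was 0.39 with a standard error of 0.15 (adjusted p = 0.872 without and 0.248 with the block by limma). *Kcnk12* and *Kcnk13* averaged at most 15.9 and 23.2 normalized counts in the pseudo-islets and in the pseudo-beta.

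The inward rectifiers other than KATP were rare. *Kcnj12* counted 65.4, 66.6 and 76.4 in the pseudo-islets and 40.2, 46.2 and 120 in the pseudo-beta. *Kcnj6*, a G protein-gated channel, was at 14.5, 30.5 and 30.2 against 49.3, 84.3 and 36.8, so that every pseudo-islets library was below every pseudo-beta library, with a log2 difference of -1.14 and a standard error of 0.48 (limma adjusted p = 0.901). *Kcnj13* was at 6.29, 3.08 and 3.77 against 13.5, 20.8 and 12.1, a separation that the minimum count of the table required.

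Calcium-activated potassium channels repolarize the cell when calcium rises. Together with their relatives of the same gene families, *Kcnu1* among them, which is not opened by calcium, they made up 7 members with differences on both sides of 0. *Kcnmb2*, a beta subunit of the large-conductance channel, counted 3966, 4838 and 3660 in the pseudo-islets and 4106, 4802 and 3601 in the pseudo-beta. The values of each experiment nearly coincided between the groups, and the log2 difference was -0.01 (95% interval -0.34 to 0.33, and -0.18 to 0.17 with the block). The pore gene *Kcnma1* averaged 556 ± 68.0 and 545 ± 29.5 normalized counts (SD, n = 3), and per kb the beta subunit was 41.0 times the pore. *Kcnn3*, a small-conductance channel, counted 85.3, 89.8 and 133 against 141, 162 and 119, lower in pseudo-islets in experiments 35 and 36 and higher in experiment 37.

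The voltage-gated potassium channels comprised 11 pore or modifier subunits, 5 higher and 6 lower in pseudo-islets. *Kcnh6*, of the ether-a-go-go-related channels, was the highest of the 11 per kb at 68.6, and its counts of 320, 206 and 228 in the pseudo-islets overlapped those of the pseudo-beta at 218, 287 and 201. *Kcnh1* counted 73.0, 242 and 189 against 136, 241 and 338, lower in pseudo-islets in experiments 35 and 37 and level in experiment 36. The *Shaker*-type channel *Kcna2* was rare but separated, at 60.5, 29.1 and 81.5 in the pseudo-islets and 17.3, 11.8 and 19.0 in the pseudo-beta. Its log2 difference of 1.68 had a standard error of 0.50 and did not pass the test (limma adjusted p = 0.722 without and 0.173 with the block). A smaller difference was found for *Kcnh2*, at 71.0 ± 28.6 and 62.6 ± 26.8 (SD, n = 3).

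Of the auxiliary subunits of these channels, *Kcnip1*, a calcium-binding partner of A-type channels, was the most abundant. It counted 1933, 2360 and 2801 in the pseudo-islets and 2754, 2605 and 2962 in the pseudo-beta, lower in all 3 experiments with overlapping groups. The log2 difference was -0.24 (95% interval -0.59 to 0.10, and -0.47 to -0.02 with the block). It did not pass the blocked limma test (adjusted p = 0.388). *Kcnip4*, of the same family, counted 234, 277 and 165 against 244, 123 and 154. Only experiment 36 showed a large ratio for *Kcnip4*, at 1.16 on the log2 scale, beside -0.06 and 0.09 in experiments 35 and 37.

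The voltage-gated calcium channels carry the current that triggers insulin release. All 4 of the alpha1 pore subunits measured were nominally lower in pseudo-islets, and 0 passed the limma test or had an unadjusted p under 0.05. *Cacna1d* was the most abundant, at 384, 401 and 575 in the pseudo-islets and 396, 374 and 641 in the pseudo-beta, and per kb it was 5.24 times *Cacna1c*. Experiment 37 was the highest in both groups, and the log2 difference was -0.03 (95% interval -0.59 to 0.53). *Cacna1c* counted 97.3, 128 and 162 against 114, 158 and 228, lower in pseudo-islets in every experiment by 0.23 to 0.49 on the log2 scale, but the groups overlapped and the standard error was 0.32. *Cacna1a* averaged 121 ± 19.5 and 165 ± 69.2 (SD, n = 3), higher in pseudo-islets in experiment 35 and lower in the other experiments.

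The auxiliary subunits of the calcium channel traffic the pore to the membrane and tune its gating. *Cacna2d1*, an alpha2delta subunit, counted 2991, 3167 and 2719 in the pseudo-islets and 3219, 2359 and 2835 in the pseudo-beta, with a log2 difference of 0.09 (95% interval -0.24 to 0.41). *Cacnb3*, the beta subunit with the highest level per kb at 72.1, counted 227, 261 and 240 against 335, 357 and 314. Each pseudo-islets library was below each pseudo-beta library, and the log2 difference was -0.46 with a standard error of 0.19 (limma adjusted p = 0.901 without and 0.321 with the block). The other beta subunits had more spread: *Cacnb2* counted 108, 89.4 and 43.6 against 102, 182 and 89.9, and *Cacnb4* was at 14.5, 37.7 and 15.4 against 30.3, 188 and 21.5, where the pseudo-beta library of experiment 36 decided the fitted log2 difference of -1.25. Without that library the difference of *Cacnb4* was -0.31.

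**Figure D4:**
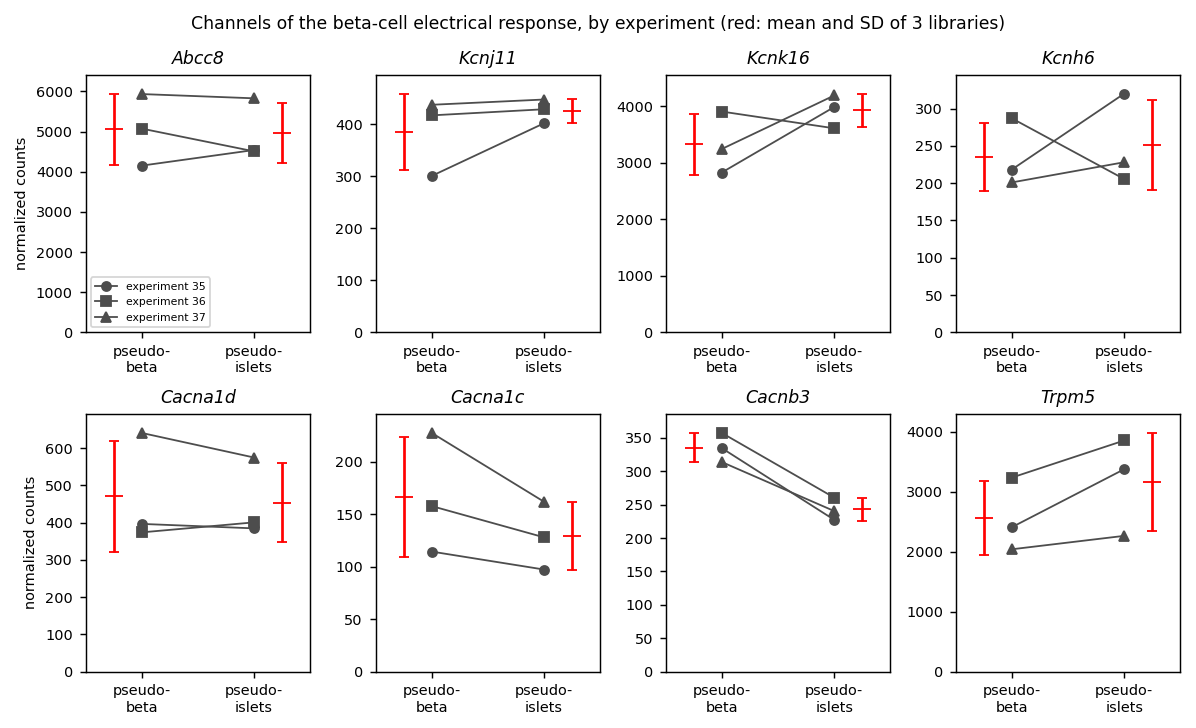
Normalized counts (linear axes from 0) of 8 channel genes of the beta-cell electrical response in pseudo-beta and pseudo-islets libraries, with lines joining libraries of 1 experiment and red marks for the mean and SD of 3 libraries. Abcc8, Kcnh6 and Cacna1d have lines in both directions, Cacnb3 goes down in all 3 experiments from 314 to 357 to 227 to 261, and Trpm5 goes up in all 3.

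The sodium channel alpha subunits other than *Scn3a* did not share its direction in every experiment. *Scn9a*, the most abundant at 45.2 per kb or 4.52 times *Scn3a*, counted 778, 486 and 409 in the pseudo-islets and 669, 627 and 493 in the pseudo-beta, with a log2 difference of -0.14 (95% interval -0.69 to 0.41). *Scn8a* counted 126, 112 and 116 against 44.8, 125 and 267. The pseudo-islets libraries of *Scn8a* were close together while the pseudo-beta libraries ranged widely, and the log2 difference was 0.04 (95% interval -1.12 to 1.20). The pacemaker channels *Hcn3* and *Hcn4* averaged under 50 normalized counts and were higher in pseudo-islets in experiment 35 only.

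The CLC family contains chloride channels and endosomal chloride-proton exchangers. All 6 members were nominally higher in pseudo-islets, with a median log2 difference of 0.14 and 0 called by limma or at an unadjusted p under 0.05. This direction did not hold in every alternative. *Clcn3* turned to -0.04 when the libraries were scaled without the 10 most abundant genes and to -0.06 after quantile normalization. *Clcn3* also changed sign in some omissions of a library or experiment. *Clcn4* was at -0.05 without the pseudo-beta library of experiment 37. Signs of the other CLC members under the alternatives are not given here. The abundant *Clcn3*, which has been placed on insulin granules, counted 2679, 2566 and 2234 against 2660, 2629 and 2136, and *Clcn4* counted 2743, 2774 and 2353 against 2740, 2689 and 2066. Both were lowest in experiment 37 in either group and differed little within an experiment, with 95% intervals of -0.30 to 0.33 and -0.26 to 0.41 on the log2 scale. *Clcn2*, at 13.2, 21.7 and 32.8 against 8.26, 3.04 and 14.8, had the largest difference of the family, 1.40 with a standard error of 0.69 (limma adjusted p = 0.946).

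TRPM channels pass depolarizing cation currents in beta-cells, and *Trpm5*, which is opened by intracellular calcium, was by far the most abundant of the 5. It counted 3373, 3851 and 2263 in the pseudo-islets and 2407, 3233 and 2039 in the pseudo-beta, higher in pseudo-islets in every experiment by 0.49, 0.25 and 0.15 on the log2 scale, with groups that overlapped. The log2 difference was 0.30 with a standard error of 0.22 (limma adjusted p = 0.990 without and 0.248 with the block). *Trpm4*, its closest relative, was also higher in every experiment, at 116, 141 and 177 against 104, 115 and 149. *Trpm2* counted 147, 32.5 and 126 against 49.2, 33.1 and 54.4, far higher in pseudo-islets in experiments 35 and 37 and level in experiment 36. In the TRPC family *Trpc1* averaged 199 ± 49.0 and 199 ± 87.6 (SD, n = 3), and *Trpc7*, the rarest of the 3, was listed at 0 in the pseudo-islets library of experiment 37.

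The remaining relatives were the second tweety gene and a pair of genes that share only a prefix. *Ttyh2* counted 445, 385 and 438 in the pseudo-islets and 292, 340 and 424 in the pseudo-beta, and its log2 difference of 0.28 (95% interval -0.17 to 0.72) stands beside 1.99 (1.39 to 2.59) for *Ttyh1*, although the difference between these genes was not tested. *Kcnq1ot1*, the antisense RNA of the imprinted *Kcnq1* locus, counted 1270, 943 and 774 against 1230, 1334 and 2266. The log2 ratios of *Kcnq1ot1* were 0.05, -0.50 and -1.55 in experiments 35, 36 and 37, and the fitted difference of -0.67 had a standard error of 0.25 (limma adjusted p = 0.872 without and 0.276 with the block). *Trpc4ap*, which encodes an adaptor protein and no channel, averaged 483 ± 173 and 642 ± 119 (SD, n = 3).

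Libraries of 1 experiment stood apart from the others for some members. Both libraries of experiment 37 were above the other 4 for 13 of the 65 members (20%), beside 16.2% of all genes, and below them for 6 (9.23%), beside 15.5%. Those of experiment 35 were above for 6 (9.23%), beside 9.32% of all genes, and below for 6 (9.23%), beside 8.38%. Those of experiment 36 were above for 2 (3.08%), beside 6.48% of all genes, and below for 5 (7.69%), beside 7.00%. For experiment 37, *Abcc8*, *Kcnj11*, *Kcnip1*, *Cacna1d*, *Cacna1c* and *Trpm4* were among the 13 above, and *Kcnmb2*, *Trpm5*, *Clcn3* and *Clcn4* among the 6 below. Of the 31 channel genes listed for a textbook place in beta-cell electrical activity, 24 were among the members. Of these, 13 were higher and 11 lower, with a median log2 difference of 0.02 and 0 called by limma with or without the block, with 2 and 5 at an unadjusted p under 0.05 in the unblocked and the blocked fit, where all genes gave 5.40% and 11.9%.

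Genes that work with the channels were followed from lists of partners (pumps, calcium store channels, regulators) and of stimulus-secretion coupling (glucose sensing, exocytosis). Of 56 listed genes 47 were in the table. Without the block 0 passed the limma test, with 4 (8.51%) at an unadjusted p under 0.05 beside 5.40% of all genes, and 21 were higher and 26 lower. With the block 2 of the 47 passed, both higher, beside 0.539% of all genes. *Atp1b1*, the beta subunit of the sodium-potassium pump, counted 5173, 5836 and 5991 in the pseudo-islets and 3903, 4390 and 4201 in the pseudo-beta. The groups were separated, with a log2 difference of 0.44 and a standard error of 0.12 (limma adjusted p = 0.620 without and 0.0332 with the block). *Itpr2*, a calcium release channel of the endoplasmic reticulum, counted 709, 923 and 540 against 330, 554 and 358, which overlapped, with a log2 difference of 0.81 and a standard error of 0.26 (0.781 and 0.0431). Neither passed the blocked fit when experiment 35 or 37 was left out, and *Atp1b1* alone passed without experiment 36. *Itpr1*, of the same family, was nominally lower, at 308, 298 and 330 against 388, 472 and 439, and did not pass with the block (limma adjusted p = 0.287).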

How the data were processed

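RNA was sequenced from 6 libraries of sorted mouse beta-cells, made from 5 ng of total RNA each with 75-base paired-end reads. Per the labels and the methods, the authors aligned reads to GRCm38 with STAR 2.7.6a, estimated counts per gene with RSEM 1.3.1 and normalized them with DESeq2 1.26.0; the deposited values are these normalized counts, a signal that is neither whole nor per length, so no count model was used and read depth is unknown. The annotation release is not given in the sources used here. The deposited table also holds the authors' own DESeq2 results (mean, log2 fold change with its standard error, a test score, p-values), which were not used.

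Values were transformed as log2(value + 1) and compared with limma 3.58.1 in R 4.3.3, with a prior variance that followed the mean level. P-values were adjusted over the 13535 genes of the table after Benjamini and Hochberg. No block was used, since the methods name none. The alternative fit took the experiment number of the labels as a replicate block. Deviations from the group means correlated between libraries of the same experiment at 0.119, 0.121 and 0.325 for experiments 35, 36 and 37. Different experiments gave -0.203 to 0.0922. Only experiment 37 stood clearly above that range, so the pairing of experiments 35 and 36 rests on the labels. Because nothing states how many animals an experiment held, p-values measure the spread between these libraries. Other alternatives changed the pseudocount (0.1 or 10), the prior variance, the filter, the scaling or the libraries included. The fit was tested on simulated data, drawn with variances fitted to these same values, so the assumptions of the model were not tested.

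Levels per kb used the union of exons in GENCODE M21 (GRCm38), which matched all 65 members. Named were *Kcnab3*, *Scn3a* and *Ttyh1*; KATP genes; called members; the 5 highest and 5 lowest differences among members with a mean of at least 50; the highest gene per kb of each family; and textbook beta-cell channels. Counts cover all 65 members, but 3 of them are not reported here by name or in plots. Members and lists were chosen with earlier results of these data known.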

Additional observations from a re-analysis of the deposited data

How the results depend on the processing

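*Ttyh1*, the 1 ion channel gene called without a block, was also the 1 called with the experiment as block, with a pseudocount of 10 and among genes with at least 10 in every library. The number called was 0 with 1 prior variance for every gene, with a pseudocount of 0.1, after scaling without the 10 most abundant genes and after quantile normalization, and 0 to 1 when 1 library or, with the block, 1 experiment was left out. Over all 18 alternatives, the 2 described next included, *Ttyh1* kept its direction, with log2 differences from 1.69 to 2.21 and adjusted p from 0.000168 to 0.464. Of 2 alternatives chosen after seeing the data, the block limited to genes with at least 10 in every library called 3 (*Ttyh1*, *Scn3a* and *Kcnab3*), and the block with 1 prior variance called 0. Over all genes these settings called 118 and 0, beside 8 without and 73 with the block. Of the partner and coupling genes 0 were called without the block, 2 with it, 2 with it among genes with at least 10 in every library, and 0 to 1 without 1 library or experiment.

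Named genes kept their direction in every alternative in 19 of 35 cases. The other 16, of which none was called in any setting, changed sign, and their log2 differences without 1 library or experiment were *Abcc8* (-0.16 to 0.101), *Cacna1d* (-0.22 to 0.21), *Cacna2d1* (-0.083 to 0.19), *Clcn3* (-0.0896 to 0.0900), *Clcn4* (-0.053 to 0.15), *Hcn3* (-0.97 to 0.62), *Hcn4* (-0.52 to 0.26), *Kcnh2* (-0.17 to 0.51), *Kcnh6* (-0.15 to 0.37), *Kcnj11* (-0.0048 to 0.26), *Kcnj12* (-0.104 to 0.67), *Kcnma1* (-0.083 to 0.16), *Kcnmb2* (-0.12 to 0.102), *Scn8a* (-0.67 to 0.65), *Scn9a* (-0.41 to 0.057), *Trpc1* (-0.34 to 0.36). In addition *Clcn3* was at -0.044 after scaling without the 10 most abundant genes and -0.0611 after quantile normalization, and *Kcnma1* was at -0.0322 and *Scn8a* at -0.0181 after that scaling. The cause of these changes was not tested. Among the ion channel, partner and coupling genes, the replicate block changed no call beyond those of *Atp1b1* and *Itpr2*. Among the cell type markers it added *Ttr*, *Etv1*, *Ppy*, *Pyy* and *C1qa*. Read depth is not known from normalized counts, and no member with a mean under 50 normalized counts had a 95% interval within a 2-fold change.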
